A study of Mus musculus with 10 samples.

Results

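RBPJ peaks at bidirectional promoters were defined as peaks whose centre lay within 1 kb of the transcription start sites (TSSs) of 2 different protein-coding genes, transcribed away from each other. The minus-strand TSS had to lie at the lower coordinate. Of 11094 RBPJ peaks, 536 met this rule, or 4.83% (95% exact binomial interval 4.44 to 5.25%), and 9.76% of the 5489 peaks with a coding TSS within 1 kb. The other promoter peaks were 4430 at single promoters and 523 where the coding TSS faced a divergent noncoding transcript, and 5605 peaks were distal. Single promoters are all remaining peaks near a coding TSS, so some can lie near TSSs of 2 genes in another arrangement. The peaks come from chromatin immunoprecipitation and sequencing (ChIP-seq) of untreated RD1 cells, labelled as mouse brain pericytes, with 10 samples in 5 groups of 2 replicates (RBPJ, H3K4me1, H3K4me3, histone H3 and input). The 2 RBPJ samples were used, and the other 8 were not analysed here. Both RBPJ files were identical, and so they count as 1 list of intervals with no score, read depth or spread between replicates. Intervals and p-values below therefore cover counting error over genes or peaks only. The study's methods describe cultured primary pericytes from brains of mice with homozygous floxed Rbpj (Rbpj lox/lox), and the labels give no genotype or clone for RD1. No expression was measured in this series, so their identity could not be checked against marker genes.

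A bidirectional promoter is a short stretch of DNA between 2 genes that are read in opposite directions, and it often lies in a CpG island. Such promoters are common at genes for DNA repair, mitochondrial proteins and chaperones. RBPJ is the DNA-binding factor of the Notch pathway, which recognises sequences with the core TGGGAA and recruits either co-repressors or, after Notch cleavage, the Notch intracellular domain and its co-activators.

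Most of these promoters had no RBPJ core sequence between the TSSs. TGGGAA, read on both strands, lay between the TSSs of 92 members (17.2%), and in 24 members (4.48%) it was part of the longer GTGGGAA. In 12 members eligible for display, GTGGGAA lay between TSSs at most 300 bp apart. Of these, 6 are shown, because an exon of another coding transcript overlapped the rest. Each line gives the whole stretch between both TSSs, on the plus strand of GRCm38. Capitals mark TGGGAA or, for a site on the minus strand, TTCCCA:
Trim46/Krtcap2 (chr3:89245898-89245965): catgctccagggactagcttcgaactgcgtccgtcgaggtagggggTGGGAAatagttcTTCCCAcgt
Cog8/Nip7 (chr8:107056690-107056876): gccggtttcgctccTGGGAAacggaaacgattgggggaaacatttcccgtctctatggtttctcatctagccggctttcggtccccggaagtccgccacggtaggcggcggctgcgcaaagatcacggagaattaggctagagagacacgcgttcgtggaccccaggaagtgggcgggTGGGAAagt
Timm23/Parg (chr14:32201899-32201948): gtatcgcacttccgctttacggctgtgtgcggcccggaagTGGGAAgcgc
Mkks/Slx4ip (chr2:136891390-136891500): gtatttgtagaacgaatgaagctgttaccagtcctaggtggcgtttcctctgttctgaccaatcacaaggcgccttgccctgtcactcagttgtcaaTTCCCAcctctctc
Hmbox1/Ints9 (chr14:64949872-64950044): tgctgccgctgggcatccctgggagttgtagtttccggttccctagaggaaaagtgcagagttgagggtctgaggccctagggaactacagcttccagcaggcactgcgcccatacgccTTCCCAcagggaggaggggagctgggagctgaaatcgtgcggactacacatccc
Slc25a27/Cyp39a1 (chr17:43667215-43667424): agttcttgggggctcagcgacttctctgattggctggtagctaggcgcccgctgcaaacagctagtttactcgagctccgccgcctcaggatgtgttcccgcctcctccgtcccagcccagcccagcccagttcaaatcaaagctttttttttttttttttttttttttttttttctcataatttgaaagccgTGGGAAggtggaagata

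Trim46, a microtubule organiser of the axon, and Krtcap2, a subunit of the oligosaccharyltransferase, shared the shorter of the 2 stretches shown with a pair of sites. Both of its sites were GTGGGAA, they faced each other, and their starts were 13 bp apart. The peak over this promoter was 1343 bp wide, and its centre lay 375 bp from the Trim46 TSS and 306 bp from the Krtcap2 TSS. Cog8, part of a Golgi tethering complex, and Nip7, a ribosome assembly factor, were separated by 187 bp with 2 sites on the same strand, 164 bp apart. One of these sites was GTGGGAA, beside 1 ETS, 1 SP1 and 1 NFY sequence. The stretch between Timm23, a mitochondrial protein import channel, and Parg, which removes poly(ADP-ribose), was only 50 bp long and joined an ETS sequence to GTGGGAA. Its peak was centred 72 bp from the Timm23 TSS and 21 bp from the Parg TSS. Mkks/Slx4ip, Hmbox1/Ints9 and Slc25a27/Cyp39a1 had 1 site each within 111, 173 and 210 bp. Ints9, a subunit of the Integrator complex, and Hmbox1, a telomere-associated homeobox protein, also had 1 ETS and 1 ZNF143 sequence between them. A match describes the letters in this window and is no evidence of contact at that base.

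TSSs of the members were close together. The gap between them had a median of 117 bp (quartiles 66 and 246 bp) and ran from 0 to 1894 bp. Over all 1238 divergent pairs, with or without a peak, the median gap was 142 bp (quartiles 70 and 343 bp). The gap was under 100 bp in 228 members and from 100 to 299 bp in 204, whereas 85 had 300 to 999 bp and 19 had 1000 bp or more. The peak interval held both TSSs in 453 members (84.5%), 1 TSS in 60 and neither in 23. Peak centres lay between the TSSs in 156 members (29.1%), on the side of the minus-strand gene in 186 and on the side of the plus-strand gene in 194. The median distance of the centre from the middle between both TSSs was 166 bp, and 413 members (77.1%) had their centre within 500 bp of both. No member lay wholly between its TSSs. The authors merged peaks within 2 kb, so that a centre need not mark the bound base.

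**Figure D1:**
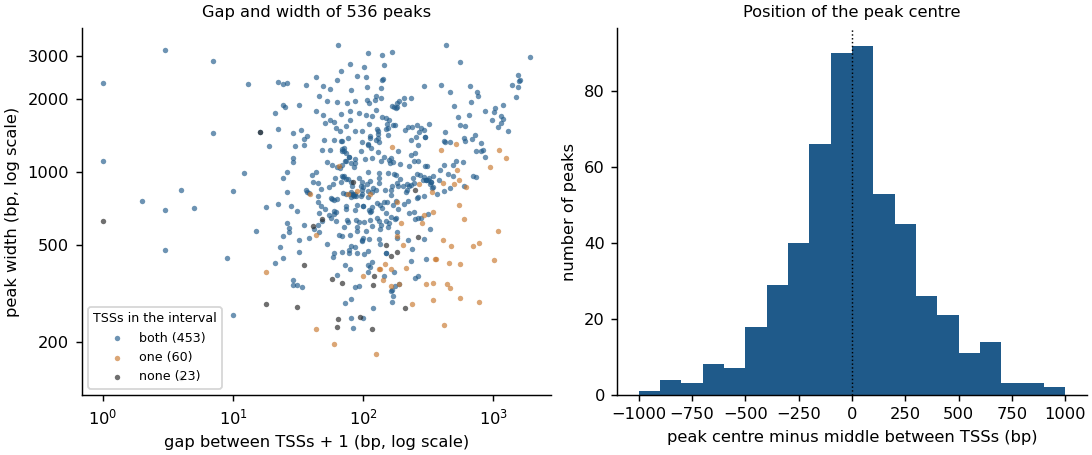
Left, each point is 1 of 536 peaks, with the gap between the TSSs plus 1 bp (x axis, log scale) and the peak width (y axis, log scale), coloured by how many of both TSSs the interval held. Right, histogram of the distance in bp of the peak centre from the middle between the TSSs, in bins of 100 bp; most points on the left have gaps under 300 bp and the histogram is centred near 0.

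Members were 142 to 3340 bp wide, with a median of 892 bp (quartiles 603 and 1380 bp). The widest were at Nab2/Nemp1 (3340 bp), Cep57l1/Sesn1 (3323 bp), Ndufs1/Eef1b2 (3193 bp), Nabp2/Rnf41 (3124 bp) and Mthfd2/Mob1a (3094 bp). Nab2 encodes a co-repressor of EGR factors, Sesn1 a stress-induced regulator of mTOR signalling, and Mthfd2 a mitochondrial enzyme of folate metabolism. The interval at Mthfd2/Mob1a (chr6:83323589-83326682) held 7 TGGGAA sites. The narrowest members were at Gm5129/Dnajb6 (142 bp), Pdap1/Bud31 (179 bp), Mrpl49/Fau (196 bp), Dnajc7/Nkiras2 (226 bp) and Ighmbp2/Mrpl21 (226 bp). Among these 5, only the peak at Gm5129/Dnajb6 held TGGGAA, at 1 site.

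Members were wider than peaks at single promoters when narrow peaks were included. Single-promoter peaks had a median of 809 bp (quartiles 501 and 1386 bp). Of the members, 56.9% (52.6 to 61.1%) were above the common median of 825 bp, against 49.2% (47.7 to 50.7%) of single-promoter peaks (two-sided Fisher's exact test, p = 8.30e-04). Among peaks of at least 500 bp the medians were 994 and 1039 bp and the difference turned to -1.40 percentage points (Fisher's exact test, p = 0.612). Against promoters with a divergent noncoding transcript, whose median was 855 bp, the difference was 3.31 points (p = 0.296 in Fisher's exact test). Members that held both TSSs were above the members' median in 56.1% of cases and the other members in 15.7%; a wide interval reaches more TSSs by its construction.

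The Kxd1/Fkbp8 and Sec23a/Gemin2 promoters stood at the edge of the definition. Their centres lay 992 and 985 bp from the farther TSS. Just outside were peaks near Map3k12/Tarbp2 at 1005 bp and Ankrd17/Gm9958 at 1022 bp. In all, 56 other promoter peaks lay near a divergent pair whose farther TSS was over 1 kb and up to 2 kb away.

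Genes of divergent pairs had an RBPJ promoter peak more often than other genes. A divergent pair is 2 protein-coding genes with a gap under 2 kb, and the annotation held 1238 such pairs with 2428 genes. Of these genes, 1183 (48.7%, 46.7 to 50.7%) had a peak centre within 1 kb of a TSS, against 4831 of 19425 other genes (24.9%, 24.3 to 25.5%). Over all protein-coding genes the share was 27.5%. The odds ratio was 2.87 (2.63 to 3.13) (two-sided Fisher's exact test, p = 1.33e-123). Both genes of a pair can count the same peak, which makes this p too small. A peak at the TSS of a close partner also counts, which raises the share of paired genes by construction. How much of the difference comes from this was not tested. Among plus-strand genes only, the shares were 48.7% of 1215 and 25.1% of 9695 (odds ratio 2.84, Fisher's exact test, p = 9.15e-62). That count still includes peaks at the partner's TSS.

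A divergent noncoding transcript went with a share in between. Of 1663 genes outside pairs that had one, 683 (41.1%, 38.7 to 43.5%) had a promoter peak, compared with 23.4% of 17762 genes with neither (odds ratio 2.29, two-sided Fisher's exact test, p = 3.00e-52). Genes of coding pairs were 7.65 points above this class (odds ratio 1.36, 1.20 to 1.55, p = 1.39e-06 in Fisher's exact test). Peaks shared by both genes of a pair make this p too small as well. The median number of annotated TSSs per gene was 2 in pairs, 3 with a noncoding partner and 2 with neither. Upper quartiles were 4, 4 and 3, so the classes did not offer equal numbers of positions. Whether this bears on the shares was not tested.

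CpG content moved with the divergent pairs. The CpG ratio, the observed number of CpG over that expected from C and G in the 200 bp around the most upstream TSS, was at least 0.8 in 55.6% of genes in pairs and in 32.0% of other genes. Within a class of this ratio the difference was smaller at higher ratios. Under 0.5, 28.6% of 385 paired genes and 7.46% of 9081 other genes had a peak (Fisher's exact test, p = 4.51e-33). From 0.5 to 0.8, the shares were 45.7 and 31.1% (p = 1.71e-13, exact test). At 0.8 or more, they were 56.0 and 46.2% (p = 5.40e-11, exact test). Standardised to the paired genes' classes, the difference of 23.9 points became 13.0 points (exact stratified test, p = 2.32e-38). Peaks shared by both genes of a pair also make the p-values of these classes too small.

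Of the 1238 divergent pairs, 549 (44.3%, 41.6 to 47.2%) had a peak near both TSSs, and these 549 pairs lay under the 536 members, since 13 members covered 2 pairs. No pair had more than 1 peak. The share was 51.0% of 459 pairs with a gap under 100 bp and 48.9% of 427 pairs with 100 to 299 bp, which did not pass the test of their difference (2.03 points, odds ratio 1.08, 0.826 to 1.42, Fisher's exact test, p = 0.591). It was 41.4% of 210 pairs with 300 to 999 bp and 13.4% of 142 pairs with a wider gap. Part of this order is built in, because the stretch in which a centre is within 1 kb of both TSSs shrinks as the gap grows. When a promoter peak at either gene was counted instead, the shares were 54.5, 53.4, 51.0 and 39.4%. On that count, pairs under 300 bp were 7.64 points above wider pairs (two-sided Fisher's exact test, p = 0.0166).

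**Figure D2:**
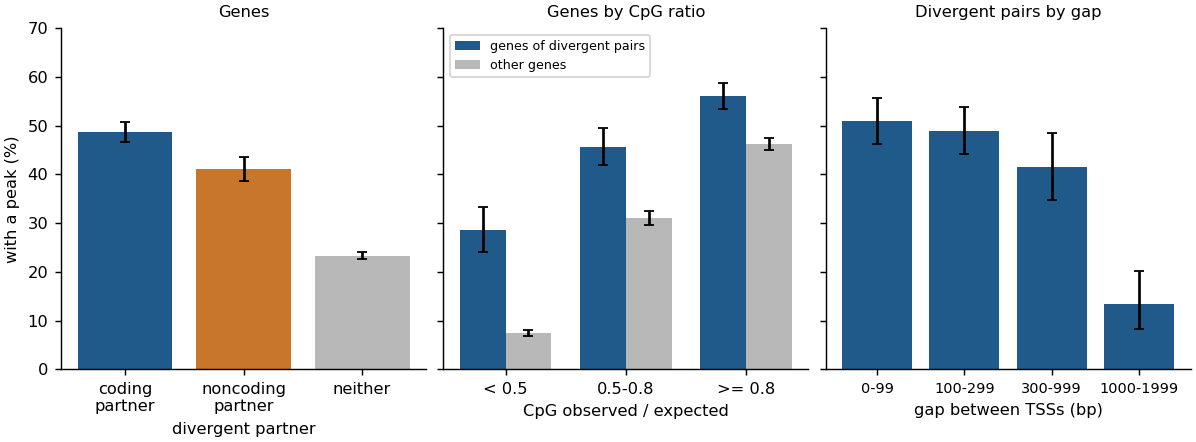
Share with an RBPJ peak in %, with 95% exact binomial intervals. Left, genes by divergent partner, from 48.7% with a coding partner to 23.4% with neither; middle, genes of divergent pairs and other genes by CpG ratio, with the paired genes higher in each class; right, divergent pairs by gap between the TSSs, falling from 51.0 to 13.4%.

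Base composition differed between pairs with and without a peak. In the 200 bp around the middle between the TSSs, GC content had a median of 63.5% (quartiles 58 and 69.5%) at pairs with a peak and 58% (50 to 65.5%) at those without. Of the former 60.8%, and of the latter 40.6%, were above the common median of 60.5% (two-sided Fisher's exact test, p = 2.43e-12). The share of pairs with a peak was 24.7% of 361 pairs with GC under 55%, 48.3% of 441 from 55 to 65%, 54.7% of 351 from 65 to 75% and 64.3% of 84 above. The CpG ratio had medians of 0.875 and 0.749 (p = 1.97e-13 in Fisher's exact test).

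Chromosomes 4, 7 and X held few members, 6, 9 and 2. Of 215 divergent pairs on these chromosomes 18 had a peak (8.37%, 5.04 to 12.9%), compared with 51.9% of 1023 pairs elsewhere. Shares on single chromosomes were 8.82% (chromosome 4), 9.09% (chromosome 7) and 5.41% (chromosome X), and on the other chromosomes they ran from 41.9 to 65%. Genes outside divergent pairs were also low there, with 4.79, 3.84 and 6.05%. These 3 chromosomes were picked because they were known to be low in peaks from earlier results of the same list, and so their values are a description with no test. The cause was not tested. For the larger gene lists below, counts of pairs are therefore also given without these chromosomes.

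**Figure D3:**
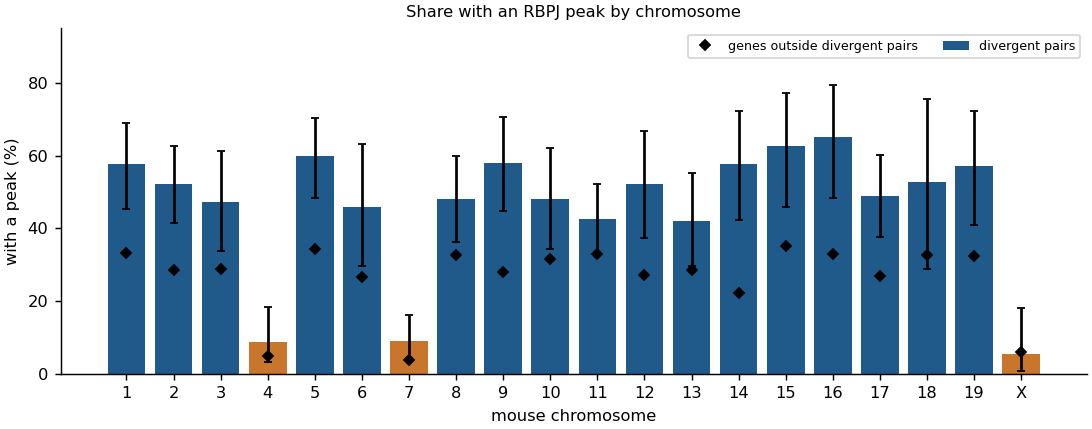
Share of divergent pairs with an RBPJ peak in % by mouse chromosome (bars, with 95% exact binomial intervals), with the share of genes outside divergent pairs that had a promoter peak (diamonds). Chromosomes 4, 7 and X, in orange, are at 5.41 to 9.09%, and all other chromosomes with divergent pairs are at 41.9% or above.

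Some divergent promoters well known from textbooks had a peak. Of 15 such pairs looked up, 12 were divergent within 2 kb in this annotation, and 7 of the 12 had a peak (58.3%, 27.7 to 84.8%), an interval that holds the 44.3% of all divergent pairs. Hspd1 and Hspe1, the mitochondrial chaperonin and its co-chaperonin, had a gap of 107 bp and a peak of 787 bp (chr1:55087606-55088392), without TGGGAA. Surf1, a cytochrome oxidase assembly factor, and Surf2 were 21 bp apart under a peak of 2345 bp with 2 TGGGAA sites. Mcm4, of the replicative helicase, and Prkdc, the DNA-dependent protein kinase, had a gap of 488 bp and a peak of 962 bp with none. At Psmb9/Tap1, which encode an immunoproteasome subunit and a peptide transporter for antigen presentation, the gap was 37 bp and the peak of 819 bp held 1 site. The peak at Brca1/Nbr1 (895 bp) held 3 sites, that at Mrps12/Sars2 (547 bp) 2 sites and that at Gart/Son (1566 bp) 3 sites, of which 1 lay between the TSSs of Gart, an enzyme of purine synthesis, and Son, a splicing cofactor. Of these 7 peaks, only the one at Gart/Son held TGGGAA between the TSSs.

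The 5 textbook pairs without a peak were Col4a4/Col4a3 (gap of 126 bp), Col4a6/Col4a5 on chromosome X (1308 bp), Atm/Npat (306 bp), Sirt3/Psmd13 on chromosome 7 (98 bp) and Xpc/Lsm3 (39 bp). None of these 10 genes had a promoter peak. Col4a1 and Col4a2, the basement membrane collagens of vessels, were not divergent within 2 kb between coding transcripts in this annotation, and neither had a promoter peak.

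In the Notch pathway, 3 of 9 divergent pairs had a peak, beside 44.3% of all divergent pairs. Of 62 pathway genes 33 had a promoter peak (53.2%, beside 27.5% of all protein-coding genes), and 8 were in divergent pairs (12.9%, beside 11.1%). Ncstn, the nicastrin subunit of gamma-secretase, was 36 bp from Copa, a coat protein of Golgi vesicles, under a peak of 827 bp (chr1:172082307-172083133) with 1 TGGGAA site. Pofut1, which fucosylates Notch receptors, was 106 bp from Plagl2 under a peak of 1973 bp with 3 sites. Ncor1, a co-repressor that RBPJ can recruit, was 653 bp from Pigl, and its peak of 1713 bp held 2 sites, of which 1 lay between the TSSs. The pairs without a peak were Aph1a/BC028528, Aph1b/Gm10647, Kat2a/Hspb9, Rfng/Gps1 and, on chromosome 7, Psenen with U2af1l4 and with Igflr1. Aph1a and Aph1b nevertheless had a promoter peak of their own, with partner gaps of 1963 and 1548 bp. Outside chromosomes 4, 7 and X the count was 3 of 7 pairs, beside 51.9%.

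No gene of the collagen, TGF-beta and BMP or pericyte marker lists was in a member. Of all protein-coding genes, 4.96% were in members, 11.1% in divergent pairs and 27.5% had a promoter peak, so that few members would be counted in lists of this size at the overall share. Of 44 collagen chain genes 4 had a promoter peak (9.09%) and 4 were in divergent pairs (9.09%), both pairs without a peak. Of 43 genes of TGF-beta and BMP signalling 19 had a promoter peak (44.2%), and only Acvr1, an activin and BMP type I receptor, had a divergent coding partner (Upp2, 229 bp), and that pair had no peak. Of 10 pericyte marker genes 1 had a promoter peak and 2 were in divergent pairs. Cspg4, which encodes the NG2 proteoglycan, and Vtn, vitronectin, were in divergent pairs with Odf3l1 and Sarm1, and neither pair had a peak.

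Pairs with a gene of the mitochondrial ribosome and of the respiratory chain, both lists of mitochondrial proteins, had different counts of peaks. The mitochondrial ribosome builds the proteins encoded by mitochondrial DNA, and of 27 divergent pairs with one of its genes 20 had a peak (74.1%, 53.7 to 88.9%). The respiratory chain oxidises fuel and makes ATP, and of 30 divergent pairs with one of its genes 5 had a peak (16.7%, 5.64 to 34.7%). Without chromosomes 4, 7 and X, the counts were 19 of 23 (82.6%) and 5 of 26 (19.2%). The value for all divergent pairs outside these chromosomes was 51.9%. Counted by gene, in pairs or not, 41 of 78 genes of the mitochondrial ribosome (52.6%) and 30 of 84 of the respiratory chain (35.7%) had a promoter peak, beside 27.5% of all protein-coding genes. By gene, the respiratory chain was thus above the overall share, and by pair it was below it. Medians in the mitochondrial ribosome and respiratory chain pairs were 80 and 99 bp for the gap, 60 and 58.5% for GC content and 0.892 and 0.903 for the CpG ratio around the middle between the TSSs. The 2 lists share the pair Ndufs6/Mrpl36, which had no peak. The difference between the lists was noticed in these data and was not tested.

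Of the 20 mitochondrial ribosome pairs with a peak, 8 held TGGGAA anywhere in the interval, beside 322 of all 536 members. Mrpl54, a subunit of the large ribosomal part, was 25 bp from Apba3 under a peak of 2333 bp with 4 sites, and Mrpl34 was 1303 bp from Abhd8 with 4 sites between the TSSs. At Mrpl18/Tcp1 (36 bp), where Tcp1 encodes a chaperonin subunit, the peak of 1404 bp held 1 site. At Mrpl40/Hira (174 bp), Mrpl43/Twnk (115 bp) and Mrpl51/Ncapd2 (463 bp) the peaks of 1563, 1140 and 860 bp held none. Hira is a histone chaperone and Twnk the mitochondrial DNA helicase. The 7 pairs without a peak were Mrpl10/Lrrc46, Mrpl36/Ndufs6, Mrps2/1700007K13Rik, Mrps34/Eme2 and, on chromosomes 4 and 7, Mrpl37/Cyb5rl, Mrpl50/Zfp189 and Mrpl46/Mrps11.

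At the respiratory chain, the pairs with a peak included Ndufs1/Eef1b2, Ndufa4/Phf14, Ndufa7/Rps28 and Ndufb9/Tatdn1. Ndufs1 is a core subunit of complex I and Eef1b2 an elongation factor of translation. Their TSSs were 2 bp apart, and the peak of 3193 bp held 5 TGGGAA sites. The peaks of the last 3 of these pairs were 258 to 671 bp wide and held none. Among the pairs without a peak were those of Sdha and Sdhd of complex II, Cox4i1 of complex IV and 7 genes of the ATP synthase, of which Atp5f1 and Atp5j had a promoter peak that was not near both TSSs.

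Few divergent pairs of core histone genes had a peak. Of 57 core histone genes, 9 had a promoter peak (15.8%, beside 27.5% of all protein-coding genes) and 36 were in divergent pairs (63.2%, beside 11.1%), most often an H2A gene facing an H2B gene. Of their 23 pairs, 1 had a peak (4.35%, beside 44.3% of all divergent pairs), at Hist1h2ac/Hist1h2bc (gap of 250 bp, peak of 368 bp, 1 TGGGAA site between the TSSs). None of the 23 lay on chromosomes 4, 7 or X, and so the count without these chromosomes was also 1 of 23, beside 51.9% of all pairs there. The middle of these promoters had a median GC content of 41% and in none of them did it reach 55%, a class in which 24.7% of all divergent pairs had a peak. Core histone genes are closely similar copies, and reads with more than 3 matching positions were dropped by the authors, so that missing peaks there are uncertain. How far this applies to these promoters was not tested.

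Other housekeeping complexes had shares near or above the 44.3% of all divergent pairs. The counts were 7 of 11 pairs for RNA polymerase subunits, 5 of 9 for the proteasome, 6 of 14 for the cytosolic ribosome and 4 of 9 for aminoacyl-tRNA synthetases. Outside chromosomes 4, 7 and X they were 7 of 9, 5 of 7, 6 of 13 and 3 of 6, beside 51.9% of all pairs there. Polr3c, of RNA polymerase III, was 35 bp from Rnf115, and the peak of 2290 bp held 4 TGGGAA sites. Psmb1 and Tbp, the TATA-binding protein, were 136 bp apart, and their peak of 2212 bp held 4 sites, of which 1 lay between the TSSs. With intervals as wide as 13.7 to 78.8% for 4 of 9, these lists cannot be ordered.

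**Figure D4:**
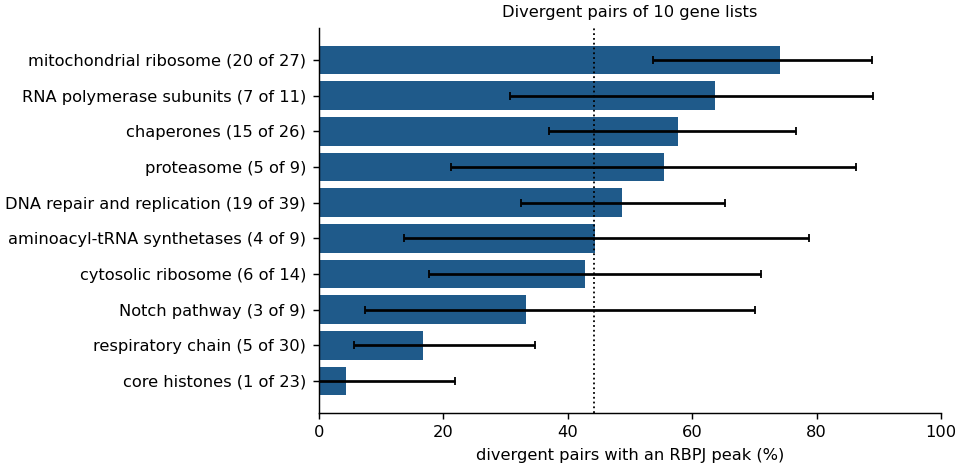
Share of divergent pairs with an RBPJ peak in % for gene lists with at least 9 such pairs, with 95% exact binomial intervals and the counts beside each name. The dotted line marks 44.3%, the share of all divergent pairs; the interval of the mitochondrial ribosome lies above it, and those of the respiratory chain and the core histones below it.

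No difference in TGGGAA was detected between members and other promoter peaks. In the central 200 bp it was found in 93 of 536 members (17.4%, 14.2 to 20.8%) and in 719 of 4430 single-promoter peaks (16.2%, 15.2 to 17.3%), with an odds ratio of 1.08 (0.845 to 1.38, two-sided Fisher's exact test, p = 0.497). Promoters with a divergent noncoding transcript held it in 14.3% (p = 0.207, exact test). Of all 21853 protein-coding promoters, 16.02% held it in 200 bp around the most upstream TSS. Distal peaks held it in 35.2%, and the difference from them was -17.9 points (odds ratio 0.386, 0.303 to 0.487, Fisher's exact test, p = 2.02e-18). GC content differed between these classes as well, with medians of 63.5% in members and 49.5% in distal peaks.

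No concentration of the sequence at the centre of members was detected either. In windows of 100 bp, 7.84% of members held TGGGAA at the peak centre, against 8.68% of the windows 1 kb to either side (Fisher's exact test, p = 0.634). The centre is the midpoint of a merged interval, and in the widest members the flanking windows lie inside the peak. Over all its peaks, the paper read sequence around the point of highest coverage and reported the RBPJ motif as enriched. Over the whole interval 322 members (60.1%, 55.8 to 64.2%) held it at least once and 157 at 2 or more sites, compared with 57.8% of single-promoter peaks (p = 0.331, exact test). Members under 500 bp held it centrally in 22.1% of 95 cases and wider members in 16.3% of 441 (Fisher's exact test, p = 0.181).

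Since every divergent pair has a middle, the same 200 bp could be read with and without a peak. TGGGAA was present around the middle in 99 of 549 pairs with a peak (18.03%, 14.9 to 21.5%) and in 97 of 689 without (14.1%, 11.6 to 16.9%). The odds ratio was 1.34 (0.977 to 1.84), and the two-sided Fisher's exact test gave p = 0.0604. Within classes of GC content the difference was 5.47 points (exact stratified test, p = 0.00668), and with a distance limit of 500 bp it was 6.13 points (Fisher's exact test, p = 0.00817). Without chromosomes 4, 7, X and Y it was 2.89 points (p = 0.231, exact test). Whether pairs with a peak hold more TGGGAA thus depended on these choices.

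Members were poorer in G and C than single-promoter peaks. The central 200 bp of members had a median GC content of 63.5% (quartiles 57 and 69.5%) and of single-promoter peaks 66.5% (58 to 72.5%). Of the members 36.6% were above the common median of 66%, against 50.2% (two-sided Fisher's exact test, p = 3.00e-09). The difference in CpG ratio did not pass the test, with medians of 0.824 and 0.813 and a difference of 1.58 points in the share above the common median (odds ratio 1.07, 0.887 to 1.28, p = 0.493 in Fisher's exact test). The window of 1 member consisted of undetermined bases and was left out of base composition.

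Among 11 sequences bound by promoter factors, 4 differed between members and single-promoter peaks after adjustment over the panel. The ETS sequence CCGGAA was in 25.4% (21.7 to 29.3%) of members and 15.9% (14.8 to 17.03%) of single-promoter peaks (odds ratio 1.80, 1.44 to 2.23, Fisher's exact test with Benjamini-Hochberg adjustment, p = 1.50e-06). ETS factors such as GABP bind many housekeeping promoters. The NFY sequence CCAAT was in 25.4 and 17.7% (odds ratio 1.58, adjusted p = 1.95e-04, exact test), and the ZNF143 sequence ACTACAA in 2.99 and 1.31% (odds ratio 2.32, adjusted p = 0.0246, exact test). The SP1 sequence GGGCGG was less frequent in members, with 46.3 and 52.0% (odds ratio 0.795, adjusted p = 0.0369, exact test).

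Within classes of GC content, the ETS difference was 9.22 points (exact stratified test, adjusted p = 3.29e-06) and the NFY difference 6.32 points (adjusted p = 0.00388, exact test). The differences for ZNF143 (1.55 points, adjusted p = 0.0603, stratified exact test) and SP1 (-0.866 points, adjusted p = 0.829, exact test) no longer passed. In the 200 bp around the most upstream TSS of all protein-coding genes, a window placed on the TSS and not on a peak centre, the shares were 15.0% for ETS, 27.9% for NFY, 40.5% for SP1 and 2.29% for ZNF143.

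The remaining sequences did not pass the adjusted test. They were NRF1 (searched as GCATGCGC) with 2.99 and 1.90% of members and single-promoter peaks, YY1 (searched as AAGATGGC) with 4.29 and 3.05%, CREB (searched as TGACGTCA) with 2.24 and 1.08%, the E-box (searched as CACGTG) with 6.53 and 5.10%, the TATA box (searched as TATAAA) with 2.99 and 2.78%, and AP-1 (searched as TGANTCA) with 1.49 and 2.96%. Their shares in the TSS windows of all promoters were 2.73, 2.79, 2.03, 5.59, 8.003 and 3.99% in that order. Each was read on both strands, and a peak could hold several of them.

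Between divergent pairs with and without a peak, another set of sequences differed. In the 200 bp around the middle, GGGCGG of SP1 was in 59.9% of pairs with a peak and 40.9% of those without (odds ratio 2.16, 1.71 to 2.73, Fisher's exact test with Benjamini-Hochberg adjustment, p = 3.27e-10). CCGGAA of ETS was in 34.6 and 26.4% (odds ratio 1.47, adjusted p = 0.0122, exact test), and TATAAA in 2.55 and 5.81% (odds ratio 0.425, adjusted p = 0.0184, exact test). CCAAT was in 31.3 and 33.7%, a difference of -2.34 points that did not pass (odds ratio 0.899, 0.702 to 1.15, adjusted p = 0.541, exact test). The E-box was in 9.84 and 6.53% and did not pass (adjusted p = 0.0968, exact test), whereas without chromosomes 4, 7, X and Y it was in 9.79 and 5.49% and passed (adjusted p = 0.0276, exact test). Within classes of GC content none of the 11 passed the adjusted exact stratified test, and 2 had an unadjusted p under 0.05 (TGGGAA, p = 0.00668, and GGGCGG, p = 0.0380). The lowest adjusted p was 0.0735, for TGGGAA.

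**Figure D5:**
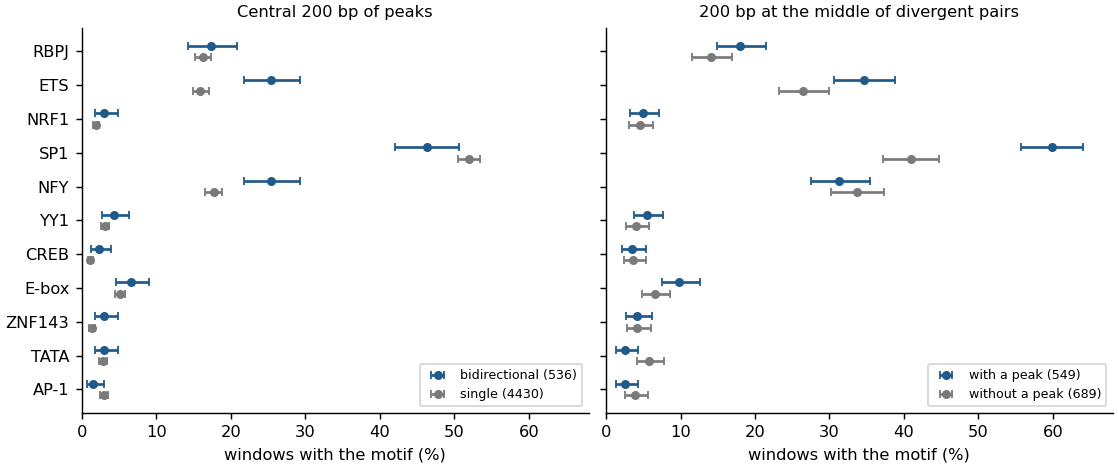
Share of 200 bp windows in % that hold each sequence on either strand, with 95% exact binomial intervals. Left, the centre of peaks at bidirectional and single promoters, where ETS (25.4 and 15.9%) and NFY (25.4 and 17.7%) stand apart; right, the middle between the TSSs of divergent pairs with and without a peak, where SP1 (59.9 and 40.9%) stands apart.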

How the data were processed

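ChIP-seq samples were grouped by their titles into RBPJ, H3K4me1, H3K4me3, H3 and input, with 2 replicates each. Reads, per the study's methods, were aligned by the authors with bowtie against GRCm38. They dropped reads with more than 3 matching positions, removed duplicates, called peaks with MACS2 and PeakRanger, merged peaks within 2 kb, asked for at least 3 overlapping calls over both callers and replicates, and filtered out blacklisted sites. Each deposited file gives interval starts and ends in bp, and both RBPJ files hold the same consensus list. Merging widens intervals, and weakly bound sites can be missing. Depth was not given in the sources used here.

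Starts were read as counted from 1. TSSs were the 54327 starts of protein-coding transcripts in GENCODE M21 on GRCm38; 0 peaks ran past a chromosome end. The members and lists were chosen with earlier results of these data known. Of the list genes, 1 had no match by symbol (Mars1). Shares were compared with two-sided Fisher's exact tests, widths and GC content as shares above the common median, and strata with an exact conditional test, with Clopper-Pearson intervals and Benjamini-Hochberg adjustment over the 11 sequences. Scripts were tested on simulated data. Pairs named were textbook and list pairs, members with GTGGGAA between close TSSs, the 5 widest and 5 narrowest members, the 5 with the smallest gap, and those next to the 1 kb limit; other list examples were picked with their values known, and no sequence from chromosome 18 was printed. Alternative settings were the distance limit, TSS set, peak position and width, chromosomes, window, motif and comparison class. Classes of the CpG ratio, the motif panel within GC classes and at pairs, and plus-strand genes were added after seeing the data. Python 3.11.15, numpy 2.4.6, scipy 1.17.1, pysam 0.24.0 and matplotlib 3.10.9 were used.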

Additional observations from a re-analysis of the deposited data

How the results depend on the processing

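No paired analysis was possible because both RBPJ files hold 1 identical list and no sample groups were compared. Since both files are the same list, leaving out either RBPJ replicate gives 536 members by construction and tests nothing. The other alternatives gave 370 (1 TSS per gene) to 615 (limit of 2 kb). The higher share of genes in divergent pairs with a peak and the lower GC content of members kept direction and side of the threshold under 11 and 9 alternatives. The greater width of members reversed among peaks of at least 500 bp (-1.40 points) and no longer passed against promoters with a divergent noncoding transcript (3.31 points). For TGGGAA in members against single promoters, a small difference of either sign was found. It reversed with a limit of 2 kb (-0.292 points), a window of 100 bp (-0.765), GTGGGAA (-0.0178) and within GC classes (-0.414), and none of its 15 alternatives passed. For TGGGAA at pairs with and without a peak, the difference passed with limits of 500 bp (6.13 points) and 2 kb (4.66), a window of 400 bp (6.07) and within GC classes (5.47), and reversed with TGAGAA (-1.89). The panel had 2 sequences past the threshold in place of 4 with 1 TSS per gene and within GC classes. ETS and NFY passed under all 9 alternatives of the panel. SP1 was also lost with a limit of 500 bp and with a window of 400 bp, and ZNF143 with a limit of 2 kb. AP-1 passed with limits of 500 bp and 2 kb and a window of 400 bp, CREB with 500 bp and with basic transcripts only, YY1 with a window of 400 bp and NRF1 among peaks of at least 500 bp. The cause was not tested in any of these. Replicate spread and read depth could not be used.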

Other observations

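DNA repair and replication genes had 39 divergent pairs, of which 19 had an RBPJ peak (48.7%, 32.4 to 65.2%, beside 44.3% of all divergent pairs), or 19 of 31 outside chromosomes 4, 7 and X (61.3%, beside 51.9% of all pairs there). Pairs with a peak included Pms2/Aimp2 (gap of 116 bp, peak of 601 bp with 1 TGGGAA site), Chek2/Hscb (201 bp, 878 bp with 2 sites), Fen1/Tmem258 (70 bp, 1262 bp with 3 sites) and Parp2/Ccnb1ip1 (108 bp, 473 bp with 4 sites). Pms2 acts in mismatch repair, Chek2 is a checkpoint kinase, Fen1 a flap endonuclease and Parp2 a poly(ADP-ribose) polymerase. Pms1 was in a pair with Ormdl1 and with Gm28778 under the same peak, of 465 bp with no site. Of the 19 pairs with a peak, 12 held TGGGAA anywhere in the interval, beside 322 of all 536 members. Pairs without a peak included Fancd2/Emc3, Rad51c/Tex14, Xrcc3/Zfyve21 and Cdc45/Ufd1.

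Chaperone genes had 26 divergent pairs, and 15 had a peak (57.7%, beside 44.3% of all divergent pairs), or 15 of 23 outside chromosomes 4, 7 and X (65.2%, beside 51.9%). Among them were Hspa1a/Hspa1l (gap of 546 bp, peak of 735 bp with 1 TGGGAA site), the stress-inducible HSP70 and its testis relative, and Hspb2/Cryab (552 bp, peak of 417 bp with none), a pair of small heat shock proteins. Hsp90b1, the HSP90 of the endoplasmic reticulum, was 301 bp from Ttc41 under a peak of 931 bp with 2 sites. Of 20 circadian clock genes 10 had a promoter peak (beside 27.5% of all protein-coding genes) and none was in a divergent pair (beside 11.1%). Members with the smallest gaps were Arfrp1/Zgpat, Dcun1d3/Lyrm1 and Bag4/Lsm1, each with 0 bp between the TSSs, Map4k5/Atl1 with 1 bp and Ndufs1/Eef1b2 with 2 bp.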
